A study of Mus musculus with 6 samples.

Results

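The genes described here encode cytokine and growth factor receptors, with their shared chains and decoys. They were chosen by name: every gene whose symbol begins as an interleukin receptor does (Il, a number, r), and 19 further receptor genes such as Kit, Epor and Csf2ra. Of the 19661 genes measured by at least 1 probe set of their own, 54 were members, 36 by the interleukin pattern and 18 of the 19 by name, and Prlr had no probe set of its own in the table used here. The pattern also takes in Il1rn, which encodes a secreted antagonist rather than a receptor.

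Expression was measured on 1-colour arrays in megakaryocyte-erythroid progenitors, the bone marrow precursors of platelets and red cells. The Fog1ki/ki mice were homozygous for a knock-in at Fog1, and the Fog1+/+ mice carried no altered allele. Both groups were of the strain B6.129, with 3 arrays each that are described as biological replicates, and the labels do not say how many mice an array held. The labels leave the knock-in mutation itself undescribed. As background from outside the files, it is known as one that keeps FOG1 from contacting the NuRD chromatin complex. FOG1, the product of Zfpm1, is a partner protein of the transcription factor GATA1. The sort kept Kit-positive cells that lacked lineage markers, Sca1 and CD34 and had low FcγRII/III, so Kit is both a member here and part of the gate.

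Cytokine receptors stay silent until a ligand brings their chains together. Most of them then act through JAK kinases bound to their cytoplasmic tails, which phosphorylate STAT transcription factors, while Kit, Flt3 and Csf1r are kinases themselves. Many chains are shared: a private chain gives ligand specificity, and a common chain such as gp130 or the beta common chain carries the signal. Erythropoietin and stem cell factor are the best known of these ligands for red cell precursors, and stem cell factor and interleukin-3 for mast cells.

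Values are RMA values on the log2 scale, on which a difference of 1 is a doubling, and a probe set's level cannot be set against that of another gene. Each array's median lay between 6.02 and 6.15 and its lower quartile between 4.81 and 4.92. Of the 54 genes, 16 (29.6%) averaged below 4.81 in both genotypes, as did 19.5% of all genes, and differences of such dim genes are compressed. Replicate 3 of each genotype had low values of the Y-linked gene Eif2s3y (3.46 in Fog1ki/ki and 3.21 in Fog1+/+, against at least 9.29 in the other arrays). Xist measured 5.78, 9.13 and 11.03 in Fog1ki/ki and 5.90, 5.18 and 11.02 in Fog1+/+, so Fog1ki/ki replicate 2 was high in Xist as well as in Eif2s3y, and the genotypes are not matched in these genes. Zfpm1 itself measured 7.65, 7.50 and 7.73 in Fog1ki/ki and 7.57, 7.37 and 7.80 in Fog1+/+, so its groups overlapped. Of the marker genes of both labelled fates, 1 of 17 erythroid and 1 of 15 megakaryocyte genes were dim in both genotypes, as were 2 of 19 granulocyte-macrophage and 4 of 15 monocyte genes, so this measure does not tell the fates apart. In limma's test 1 erythroid gene fell (Xk), 1 of 13 stem and multipotent progenitor genes rose (Adgrg1), and 0 of the megakaryocyte, granulocyte-macrophage and monocyte genes passed. At unadjusted p under 0.05 the erythroid list held 0 higher and 2 lower, the stem and multipotent list 4 higher and 2 lower, the megakaryocyte list 3 higher and 1 lower, the granulocyte-macrophage list 1 higher and 0 lower, and the monocyte list 1 of each. In the same order the shares were 0% and 11.8%, 30.8% and 15.4%, 20.0% and 6.67%, 5.26% and 0%, and 6.67% each. Of all genes, 4.99% were higher and 4.58% lower at that level. At an adjusted p under 0.05, limma called 0.376% of all genes higher and 0.397% lower. In these bulk samples, fewer cells of a type and less RNA per cell cannot be told apart.

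Most receptor genes differed little between the genotypes. In limma's test over all genes, at a Benjamini-Hochberg adjusted p under 0.05, 1 of the 54 rose in Fog1ki/ki (Il12rb2), 1 fell (Il31ra) and 52 did not pass. Of all genes, 0.376% were called higher and 0.397% lower (0.773% in either direction), so 1 of 54 in each direction (1.85%) is a count too small to read against that background. At unadjusted p under 0.05 there were 7 higher and 5 lower, 13.0% and 9.26% of the receptors, where 4.99% and 4.58% of all genes lay (9.57% either way). With each array centred on its median these counts of receptors were 3 higher and 5 lower, so the share of higher genes among them depends on the scaling. The share of all genes was not counted with that centring. The median log2 difference was 0.03 for the receptors and 0.02 for all genes, and with each array centred on its median both were just below 0 (-0.01 and -0.02). The scatter of receptors among all genes shows that most members lie within the bulk of the genes at their level.

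**Figure D1:**
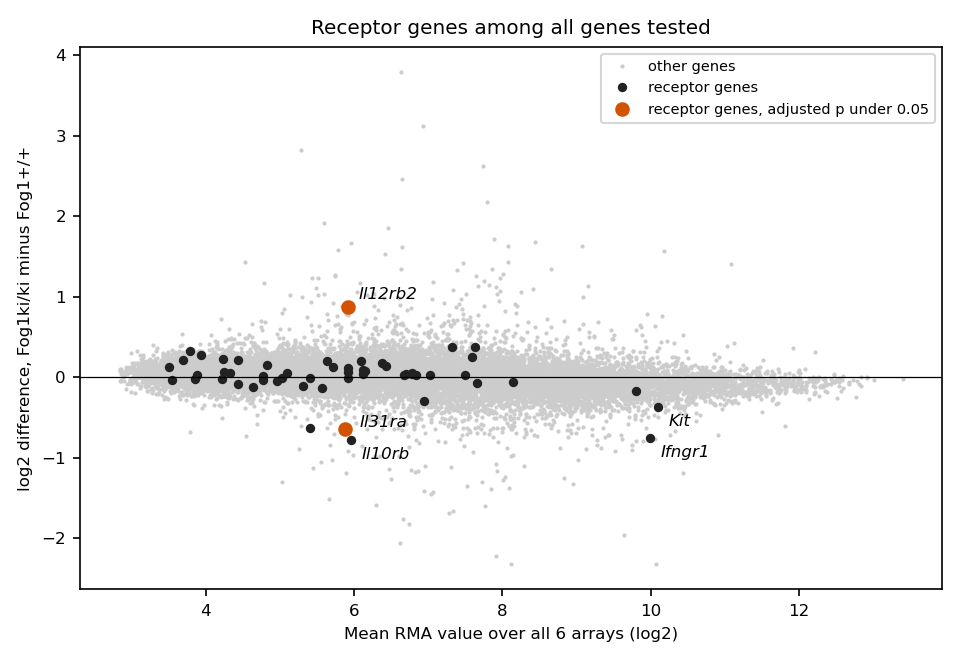
Log2 difference, Fog1ki/ki minus Fog1+/+ (vertical axis), against the mean RMA value over all 6 arrays (horizontal axis, log2) for every gene tested. The 54 receptor genes are dark points, and the 2 past an adjusted p of 0.05, Il12rb2 at 0.87 and Il31ra at -0.65, are orange.

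Arrays of the genotypes did not overlap for 10 of the 54 genes, as for 14.8% of all genes. All Fog1ki/ki arrays lay above all Fog1+/+ arrays for 6 (Il12rb2, Csf2ra, Il1rapl1, Il5ra, Il20ra and Il1rn), 11.1% of the receptors against 8.31% of all genes. They lay below for 4 (Il10rb, Ifngr1, Il31ra and Kit), 7.41% against 6.53%. The limma 95% interval of the difference lay wholly within 0.5 log2 units of 0 for 40 of the 54 receptors. That is a smaller share than the 81.3% of all genes. Differences larger than 0.5 either way were measured for 5 receptors: Il10rb, Ifngr1, Il31ra, Il1rl2 and Il12rb2. The share of all genes with differences that large was not counted.

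Both receptors past the threshold belong to the family built around gp130 and the IL-12 receptor. Il12rb2 averaged 5.49 in Fog1+/+ and Il31ra 5.55 in Fog1ki/ki, below every array's median (6.02 to 6.15). Whether either gene read above background was not tested. Il12rb2 encodes the signalling chain of the interleukin-12 receptor, best known from T and NK cells, where it activates STAT4. It measured 6.39, 6.30 and 6.38 in Fog1ki/ki and 5.35, 5.47 and 5.64 in Fog1+/+. The lowest Fog1ki/ki array stood above the highest Fog1+/+ array, and the Fog1ki/ki arrays lay close together. The means were 6.36 ± 0.05 and 5.49 ± 0.15 (SD, n = 3 each), a 1.83-fold higher level in Fog1ki/ki with a log2 difference of 0.87 (SE 0.10, 95% interval 0.64 to 1.10, limma adjusted p = 0.00681). By p-value it stood at rank 41 of all genes tested. The call held in 15 of 16 alternative settings, and was lost without both arrays low in Y-linked genes (log2 difference 0.94, limma adjusted p = 0.0875), where 2 arrays per genotype remained.

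Il31ra encodes the private chain of the interleukin-31 receptor, which pairs with the product of Osmr and is best known from sensory neurons and myeloid cells. Its values were 5.53, 5.71 and 5.42 in Fog1ki/ki and 6.18, 6.27 and 6.15 in Fog1+/+. Every Fog1ki/ki array was below every Fog1+/+ array. The gene was 1.57-fold lower in Fog1ki/ki, with means of 5.55 ± 0.15 in Fog1ki/ki and 6.20 ± 0.06 in Fog1+/+ (SD, n = 3 each), a log2 difference of -0.65 (SE 0.10, 95% interval -0.88 to -0.41, limma adjusted p = 0.0296). This call was lost in 6 of 16 alternative settings: without Fog1ki/ki replicate 1 or 3 (limma adjusted p = 0.0668 and 0.0857), without Fog1+/+ replicate 1, 2 or 3 (0.123, 0.124 and 0.121) and without both arrays low in Y-linked genes (0.292). In all 16 the log2 difference lay between -0.73 and -0.58.

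The DNA before these genes is printed because GATA1, the partner of FOG1, binds GATA motifs. Kit and Epor are shown beside Il12rb2 and Il31ra as the receptors of stem cell factor and erythropoietin. Each line holds the 250 bases before the RefSeq gene start (GRCm38.p6), 5′ to 3′ on the gene's strand, with matches to any of the 4 GATA hexamers in capitals, on either strand. These are AGATAA and its variant AGATAG, together with TGATAA and its variant TGATAG.
Il12rb2 (chr6:67376189-67376438, minus strand): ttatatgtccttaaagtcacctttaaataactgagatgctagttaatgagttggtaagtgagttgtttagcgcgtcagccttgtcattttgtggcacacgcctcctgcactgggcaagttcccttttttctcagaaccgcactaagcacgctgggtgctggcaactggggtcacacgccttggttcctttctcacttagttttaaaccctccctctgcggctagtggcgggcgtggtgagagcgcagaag
Il31ra (chr13:112580663-112580912, minus strand): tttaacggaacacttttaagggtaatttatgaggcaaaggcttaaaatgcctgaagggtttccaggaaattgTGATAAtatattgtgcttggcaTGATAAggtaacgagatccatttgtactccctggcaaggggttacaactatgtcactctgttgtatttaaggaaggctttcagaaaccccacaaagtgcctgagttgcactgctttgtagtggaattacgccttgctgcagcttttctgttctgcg
Kit (chr5:75574737-75574986, plus strand): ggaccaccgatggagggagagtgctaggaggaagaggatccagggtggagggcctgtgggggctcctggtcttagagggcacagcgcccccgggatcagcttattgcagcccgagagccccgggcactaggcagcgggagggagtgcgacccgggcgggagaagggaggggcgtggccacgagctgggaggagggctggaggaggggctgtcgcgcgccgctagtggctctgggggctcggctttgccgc
Epor (chr9:21963577-21963826, minus strand): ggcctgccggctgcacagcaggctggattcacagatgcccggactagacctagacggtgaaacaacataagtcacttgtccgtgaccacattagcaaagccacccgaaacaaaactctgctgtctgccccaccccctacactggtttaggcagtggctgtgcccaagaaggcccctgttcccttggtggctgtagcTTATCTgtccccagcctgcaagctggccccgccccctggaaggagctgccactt

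The window of Il31ra held 2 matches, both TGATAA, beginning 178 and 156 bases before the start. That of Epor held 1, at 54 bases, read as TTATCT on the printed strand. The windows of Il12rb2 and Kit held none, which says only that these letters are not in these windows. Of 45 receptor genes with an entry in the RefSeq promoter table, 13 (28.9%) held at least 1 match, where 22.9% of 15352 tested genes with an entry did and 27.1% of all 27025 genes in the table. Overlapping matches were each counted, and a match is a description of the letters, not a bound site.

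The partners of both receptors gave smaller differences. Il12rb1, the chain that IL-12 and IL-23 receptors share, measured 5.90, 6.05 and 5.99 in Fog1ki/ki and 5.80, 5.86 and 5.93 in Fog1+/+ (log2 difference 0.12, 95% interval -0.09 to 0.32). Its groups overlapped. Il23r, the private chain of the IL-23 receptor and the neighbour of Il12rb2 on chromosome 6, measured 4.21, 3.86 and 4.13 in Fog1ki/ki and 3.87, 3.82 and 3.70 in Fog1+/+, a log2 difference of 0.27 (limma adjusted p = 0.496) in a gene that was dim in both genotypes. Stat4 measured 3.62, 3.73 and 3.92 in Fog1ki/ki and 4.13, 3.93 and 3.87 in Fog1+/+, also dim, and its groups overlapped. Osmr, the partner of Il31ra, had a log2 difference of -0.09 (95% interval -0.31 to 0.14) and was dim as well. Il6st, which encodes gp130 and adjoins Il31ra on chromosome 13, measured 5.16, 5.29 and 5.32 in Fog1ki/ki and 5.48, 5.30 and 5.34 in Fog1+/+ (log2 difference -0.12, 95% interval -0.33 to 0.10). In the rest of the family the log2 differences were 0.08 for the interleukin-6 chain Il6ra, 0.04 for the interleukin-27 chain Il27ra and -0.02 for the leukaemia inhibitory factor chain Lifr. Lifr was dim in both genotypes.

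Values of other cell types stand beside these calls. Of 17 lymphoid marker genes that are not receptors, 0 passed limma's test over all genes (0 higher and 1 lower at unadjusted p under 0.05), and their summed linear signal ran from 596 to 671 in Fog1ki/ki and from 589 to 615 in Fog1+/+, with 8 of the 17 below the lower quartile in both genotypes. Among markers of the labelled fates, the summed signal ran from 20830 to 22840 in Fog1ki/ki and from 23050 to 23470 in Fog1+/+ for the erythroid list. It ran from 1836 to 1959 in Fog1ki/ki and from 1572 to 1678 in Fog1+/+ for the megakaryocyte list. Over all genes, as for the erythroid list, the sum was lower in Fog1ki/ki (5168000 to 5350000, against 5385000 to 5489000 in Fog1+/+). Of 19 mast cell marker genes other than Kit, 6 rose (31.6%, where 0.376% of all genes did) and 0 fell. At unadjusted p under 0.05, 9 were higher (47.4%, against 4.99% of all genes) and 0 lower. Their summed signal ran from 4780 to 6548 in Fog1ki/ki and from 1743 to 2659 in Fog1+/+, and 5 of the 19, among them the chymases Mcpt1, Mcpt2 and Mcpt4, were dim in both genotypes. Such sums are led by the brightest probe sets: Cd63 alone gave 54.8 to 68.0% of the mast cell sum in Fog1ki/ki and 52.2 to 68.9% in Fog1+/+. Without it the sum ran from 1843 to 2957 in Fog1ki/ki and from 826 to 860 in Fog1+/+. Without Car1, their brightest gene, the erythroid sums of the genotypes overlapped. Gata2, a transcription factor of mast cells and stem cells, was 2.20-fold higher in Fog1ki/ki (limma adjusted p = 0.0164), a call lost without Fog1ki/ki replicate 3 (adjusted p = 0.0579), any 1 Fog1+/+ array (0.0629 to 0.0875) or both arrays low in Y-linked genes (0.217). The part of these genes in the receptor results was not tested.

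**Figure D2:**
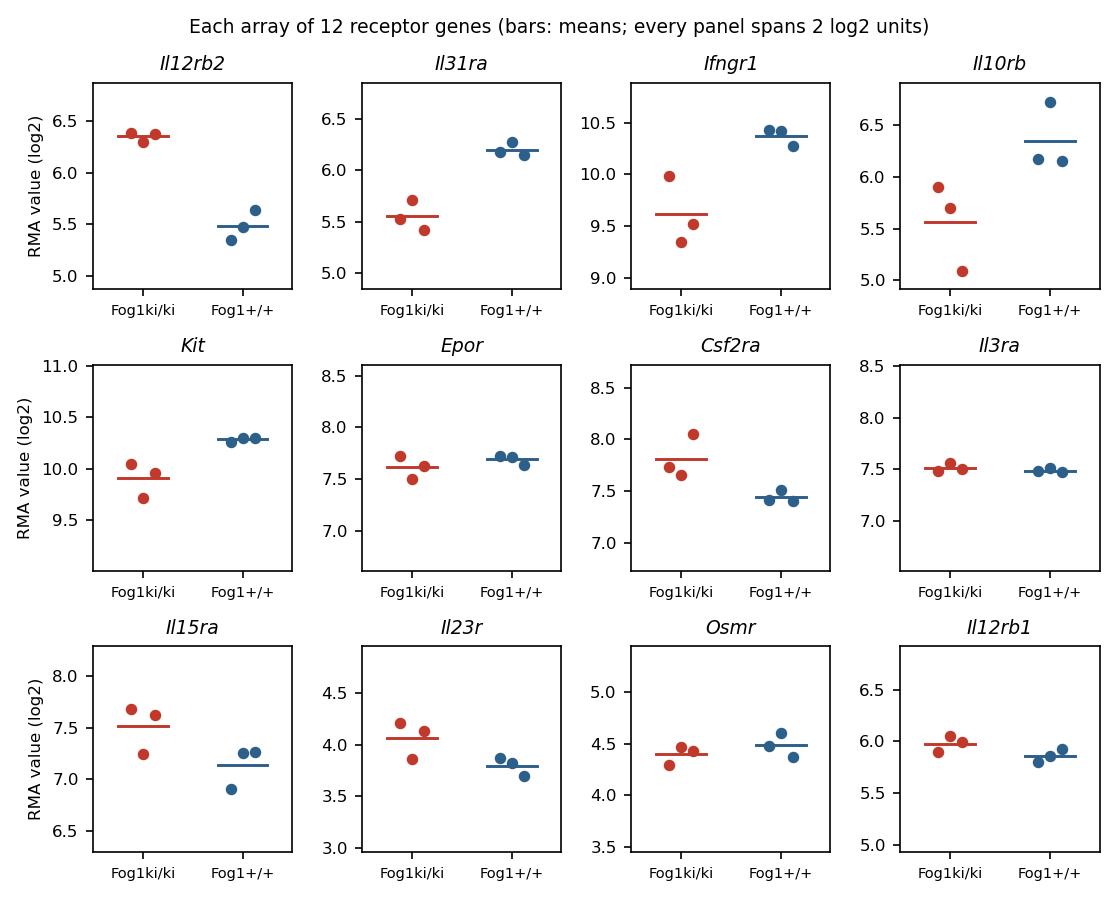
RMA values (log2) of 12 receptor genes on each array, Fog1ki/ki in red on the left and Fog1+/+ in blue on the right of each panel, with bars at the means and the same span of 2 log2 units in every panel. The genotypes do not overlap for Il12rb2, Il31ra, Ifngr1, Il10rb, Kit and Csf2ra, and they overlap for the other 6.

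The receptor kinases include the gate's own marker. Kit, the receptor of stem cell factor, measured 10.05, 9.72 and 9.96 in Fog1ki/ki and 10.26, 10.30 and 10.30 in Fog1+/+. The groups did not overlap, yet the log2 difference of -0.38 (SE 0.11, 95% interval -0.62 to -0.14) did not pass limma's test over all genes (adjusted p = 0.232), nor in any of the 16 alternatives (adjusted p from 0.117 to 0.752). All cells had been sorted as Kit-positive by their surface protein, so this difference lies within a gate on Kit. Flt3, the receptor of lymphoid and multipotent progenitors, had a log2 difference of -0.01 (95% interval -0.30 to 0.28). Csf1r, the receptor of monocytes and macrophages, had one of 0.05 (95% interval -0.29 to 0.38).

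No difference was detected in the receptor of erythropoietin. Epor measured 7.72, 7.50 and 7.63 in Fog1ki/ki and 7.72, 7.71 and 7.64 in Fog1+/+, so the groups overlapped. Its log2 difference was -0.07, with a 95% interval of -0.29 to 0.14 (limma adjusted p = 0.876). The other receptors that work as pairs of 1 chain gave log2 differences of -0.13 for the granulocyte receptor Csf3r, 0.02 for the leptin receptor Lepr and 0.06 for the growth hormone receptor Ghr. Lepr and Ghr were dim in both genotypes.

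In the family of the beta common chain, all 5 log2 differences were above 0, and none passed in limma. Those of Il3ra and Csf2rb2 were below 0 with each array centred on its median. At unadjusted p under 0.05, 2 of the 5 were higher and 0 lower, against 4.99% and 4.58% of all genes. Csf2ra, the private chain of the GM-CSF receptor, measured 7.73, 7.65 and 8.05 in Fog1ki/ki and 7.41, 7.51 and 7.40 in Fog1+/+. The groups did not overlap, and replicate 3 was the highest of the Fog1ki/ki arrays (log2 difference 0.37, SE 0.12, limma adjusted p = 0.316). Il3ra, the private chain of the interleukin-3 receptor, lay between 7.47 and 7.56 on all 6 arrays (log2 difference 0.03, 95% interval -0.16 to 0.22). Il5ra, the private chain of eosinophils and basophils, measured 4.32, 4.37 and 4.36 in Fog1ki/ki and 4.08, 4.11 and 4.17 in Fog1+/+, and was dim in both (limma adjusted p = 0.403). The shared chain Csf2rb had a log2 difference of 0.20 (95% interval -0.15 to 0.56) and its neighbour Csf2rb2, the mouse chain reserved for interleukin-3, one of 0.04, with a sign that changed in 4 alternatives. Beside these values, 1 of 10 basophil and eosinophil genes other than Il5ra rose (Csrp3). At unadjusted p under 0.05, 4 were higher (40.0%, against 4.99% of all genes) and 0 lower. These 4 were Csrp3, Fcer1a (log2 difference 1.91), Mcpt8 (1.03) and Prg2 (0.83). Fcer1a measured 7.46, 6.93 and 5.24 in Fog1ki/ki and 4.64, 4.61 and 4.65 in Fog1+/+. Mcpt8 measured 7.40, 5.50 and 5.44 in Fog1ki/ki and 5.10, 4.99 and 5.17 in Fog1+/+, so Fog1ki/ki replicate 1 stood far above the rest. The genes other than these 4 had log2 differences from -0.05 (Ccr3) to 0.17 (Siglecf). The summed signal of the list ran from 922 to 1328 in Fog1ki/ki and from 523 to 547 in Fog1+/+. Csrp3 gave 42.2 to 48.8% of it in Fog1ki/ki and 25.7 to 30.5% in Fog1+/+. Without Csrp3 it ran from 518 to 680 in Fog1ki/ki and from 377 to 389 in Fog1+/+. The part of these genes here was not tested.

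The class II receptors, which bind interferons and the interleukin-10 group, held the 2 lowest log2 differences of all 54 genes. Of the 10 members, 0 passed in limma, which called 0.376% of all genes higher and 0.397% lower. At unadjusted p under 0.05, 0 were higher and 2 lower (0% and 20.0%, against 4.99% and 4.58% of all genes). Ifngr1, the ligand-binding chain of the interferon-gamma receptor, measured 9.98, 9.34 and 9.52 in Fog1ki/ki and 10.43, 10.42 and 10.27 in Fog1+/+. The groups did not overlap, and Fog1ki/ki replicate 1 stood nearest to Fog1+/+. The log2 difference of -0.76 (SE 0.16, 95% interval -1.11 to -0.41) did not pass (limma adjusted p = 0.0871), but it did with array weights (log2 difference -0.85, limma adjusted p = 0.0223) and without Fog1ki/ki replicate 1 (-0.94, limma adjusted p = 0.0114). Il10rb, the chain shared by the receptors of interleukin-10, interleukin-22 and interferon-lambda, measured 5.90, 5.70 and 5.09 in Fog1ki/ki and 6.17, 6.73 and 6.15 in Fog1+/+. Its groups did not overlap either, with a wide spread within each (log2 difference -0.79, SE 0.22, limma adjusted p = 0.239). Without Fog1ki/ki replicate 3, the lowest array, its log2 difference was -0.55.

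The second chain of the interferon-gamma receptor, Ifngr2, measured 7.07, 6.92 and 7.12 in Fog1ki/ki and 7.21, 6.93 and 6.91 in Fog1+/+ and overlapped. Its log2 difference of 0.02 changed sign in 6 of the 16 alternatives. The chains of the interferon-alpha receptor had log2 differences of -0.30 for Ifnar1 (95% interval -0.68 to 0.09) and -0.17 for Ifnar2 (95% interval -0.48 to 0.15). Ifnar1 measured 7.0, 7.01 and 6.36 in Fog1ki/ki and 7.16, 7.01 and 7.09 in Fog1+/+, so replicate 3 alone stood well below the Fog1+/+ arrays. The remaining chains ranged from 0.01 for Il10ra to 0.25 for the interleukin-20 chain Il20rb, with Il22ra2, a soluble binder of interleukin-22, at 0.05, Il22ra1 at 0.13 and Il20ra at 0.21. Il20ra, a chain of the interleukin-20 receptor, measured 4.62, 4.47 and 4.51 in Fog1ki/ki and 4.39, 4.38 and 4.21 in Fog1+/+, which did not overlap but were all dim. Il10ra and Il22ra2 were dim as well. Il20rb had 3 probe sets with log2 differences of 0.25, 0.21 and 0.23, and Il22ra1 had 2, at 0.13 and 0.00.

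Among chains whose ligands belong to the common gamma chain group, with their near relatives, none of 10 passed in limma. At unadjusted p under 0.05, 1 was higher and 0 lower (10.0% and 0%, against 4.99% and 4.58% of all genes). The gamma chain gene itself, Il2rg, was not analysed here. Il15ra, which presents interleukin-15 to neighbouring cells, measured 7.68, 7.24 and 7.62 in Fog1ki/ki and 6.90, 7.25 and 7.26 in Fog1+/+. Fog1ki/ki replicate 2 lay among the Fog1+/+ arrays (log2 difference 0.38, limma adjusted p = 0.445). Il7r, the receptor of lymphoid precursors, was dim, with a log2 difference of -0.13, and Il2rb, known from NK and T cells, stood at -0.05. Il9r, a receptor of mast cells and T cells, had a log2 difference of 0.18 and Il4ra, the chain shared by interleukin-4 and interleukin-13, one of 0.03 (95% interval -0.20 to 0.26). Il2ra stood at 0.21, Il21r at 0.09, the TSLP receptor Crlf2 at 0.03, Il13ra1 at -0.02 and the decoy Il13ra2 at -0.03. Il2ra and both interleukin-13 chains were dim in both genotypes.

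None of the 8 genes of the interleukin-1 and interleukin-18 group passed (0 in limma, with 2 higher and 1 lower at unadjusted p under 0.05). Il1rl2, the receptor of interleukin-36, measured 5.36, 4.86 and 5.03 in Fog1ki/ki and 6.0, 5.27 and 5.88 in Fog1+/+. Its groups overlapped and both were spread (log2 difference -0.63, SE 0.20, limma adjusted p = 0.303). Il1rapl1, a relative best known from synapses, did not overlap at 4.0, 3.93 and 3.92 in Fog1ki/ki and 3.61, 3.71 and 3.56 in Fog1+/+, all dim values. The antagonist gene Il1rn measured 6.18, 6.21 and 6.21 in Fog1ki/ki and 5.98, 6.04 and 5.97 in Fog1+/+ (log2 difference 0.20, limma adjusted p = 0.483). The decoy receptor Il1r2 stood at 0.15, Il1rapl2 at 0.13, the shared accessory chain Il1rap at 0.05, and both interleukin-18 chains at -0.03 (Il18r1) and -0.01 (Il18rap). Il1rapl2 and Il18r1 were dim in both genotypes, and Il1r2 in Fog1+/+ only. Il1rl1, the interleukin-33 receptor of mast cells, was not analysed here.

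None of the 5 interleukin-17 receptor genes passed (0 called in limma, and 0 at unadjusted p under 0.05). Their log2 differences ran from -0.07 for the shared chain Il17ra to 0.12 for Il17rb, with Il17rd at -0.02, Il17rc at 0.04 and Il17re at 0.07. Both probe sets of Il17rd gave values close to 0, at -0.02 and -0.03.

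**Figure D3:**
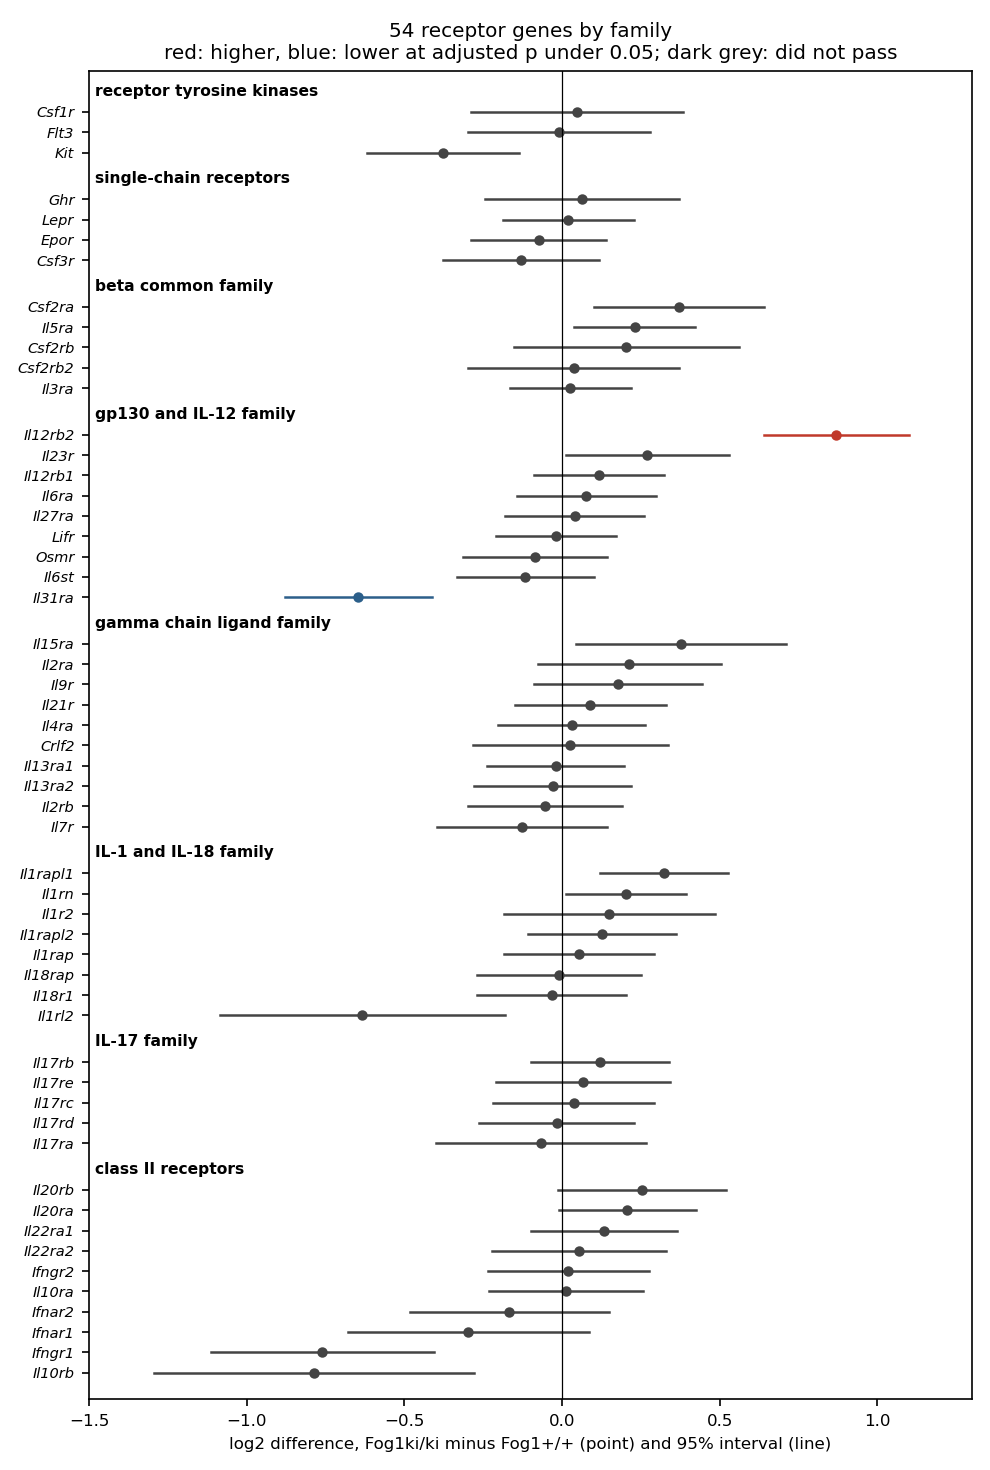
Log2 difference, Fog1ki/ki minus Fog1+/+ (points), with the 95% interval from limma (lines), for the 54 receptor genes grouped by family. Il12rb2 (red) and Il31ra (blue) are the only genes past an adjusted p of 0.05 in this setting. Of the genes that did not pass, 4 have intervals wholly below 0 (Il10rb, Ifngr1, Il1rl2 and Kit) and 6 wholly above 0 (Csf2ra, Il15ra, Il1rapl1, Il23r, Il5ra and Il1rn).

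Many receptor genes lie side by side, and neighbours did not always have like values. In order of start among RefSeq protein-coding genes (GRCm38.p6), 23 of the 54 formed 10 runs of adjacent members. The run Ifnar2, Il10rb, Ifnar1 and Ifngr2 on chromosome 16 spanned log2 differences of -0.79 to 0.02. On chromosome 10, Ifngr1 stood at -0.76 beside Il22ra2 at 0.05 and Il20ra at 0.21. In the other 8 runs both members had the same sign as measured: Il12rb2 with Il23r, Il6st with Il31ra, Il2ra with Il15ra, Csf2rb2 with Csf2rb, Il18r1 with Il18rap, Osmr with Lifr, Il17re with Il17rc and Il4ra with Il21r. For most of these pairs the values are too near 0 to carry a direction, and differences between neighbours were not tested. Zfpm1 lies on chromosome 8, as do 2 receptor genes, Il12rb1 (0.12) and Il27ra (0.04).

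The genes that act on either side of these receptors changed in few cases. Beside the counts of these lists, limma called 0.376% of all genes higher and 0.397% lower at the adjusted threshold. At unadjusted p under 0.05 the shares of all genes were 4.99% and 4.58%. Of 40 measured ligand genes, 0 passed limma's test over all genes (3 higher and 0 lower at unadjusted p under 0.05), and 19 were dim in both genotypes. Il1b, an inflammatory ligand, had the smallest p, at 5.98, 6.05 and 6.06 in Fog1ki/ki and 5.43, 5.62 and 5.68 in Fog1+/+. These groups did not overlap (log2 difference 0.45, SE 0.10, limma adjusted p = 0.105). The subunits of interleukin-12, Il12a and Il12b, gave log2 differences of 0.04 and -0.04.

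Of 9 JAK and STAT genes, 0 passed (limma, 1 higher and 1 lower at unadjusted p under 0.05). Stat3, which acts below gp130, measured 6.41, 6.59 and 6.74 in Fog1ki/ki and 6.90, 7.51 and 6.93 in Fog1+/+. The groups did not overlap, with Fog1+/+ replicate 2 far above the rest (log2 difference -0.53, SE 0.17, limma adjusted p = 0.312). Without that array the log2 difference was -0.34. The same array was the highest of the 6 for the interferon targets Irf1 (7.88), Irf7 (6.18) and Gbp3 (6.45). It was also the highest for Irf9 (7.67), Ifit1 (5.45), Ifit2 (7.29) and Bst2 (7.16). For Ifit3 (4.95) and Mx2 (4.30) it was the lowest, and for the other measured interferon targets it was neither. Jak2, the kinase of the erythropoietin receptor, had a log2 difference of -0.02 (95% interval -0.24 to 0.20), and Stat5a and Stat5b, which act below it, had -0.14 and -0.16. Of 26 feedback inhibitors, 0 passed (2 higher and 2 lower at unadjusted p under 0.05). Socs2, which is both such an inhibitor and a STAT5 target, measured 6.20, 6.28 and 6.22 in Fog1ki/ki and 5.89, 5.91 and 5.90 in Fog1+/+. Its arrays were tight and did not overlap (log2 difference 0.33, SE 0.08, limma adjusted p = 0.177).

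Of 17 STAT5 target genes, 0 passed (limma, 2 higher and 1 lower at unadjusted p under 0.05, median log2 difference 0.06). Of 16 interferon target genes, 0 passed (2 higher and 0 lower at unadjusted p under 0.05, median -0.03), and the one with the smallest p was Stat2, at a log2 difference of 0.33 (limma adjusted p = 0.492). Of 29 adaptors and kinases that bind or follow the receptors, 1 fell and 0 rose (3 higher and 3 lower at unadjusted p under 0.05). The one that fell was Grb10, an adaptor that binds activated receptor kinases, at 5.41, 5.61 and 5.77 in Fog1ki/ki and 7.66, 7.34 and 7.96 in Fog1+/+. It was 4.16-fold lower, with every Fog1ki/ki array far below every Fog1+/+ array (limma adjusted p = 0.000952), and it passed in all 16 alternatives. Of 32 other growth factor receptors, 1 fell and 0 rose (0 higher and 2 lower at unadjusted p under 0.05). Tgfbr3, a co-receptor of TGF-beta, measured 7.24, 7.48 and 7.20 in Fog1ki/ki and 7.92, 8.20 and 7.87 in Fog1+/+. Its call (log2 difference -0.69, limma adjusted p = 0.0451) was lost in 11 of 16 alternatives, among them the removal of any 1 array (limma adjusted p from 0.073 to 0.148).

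**Figure D4:**
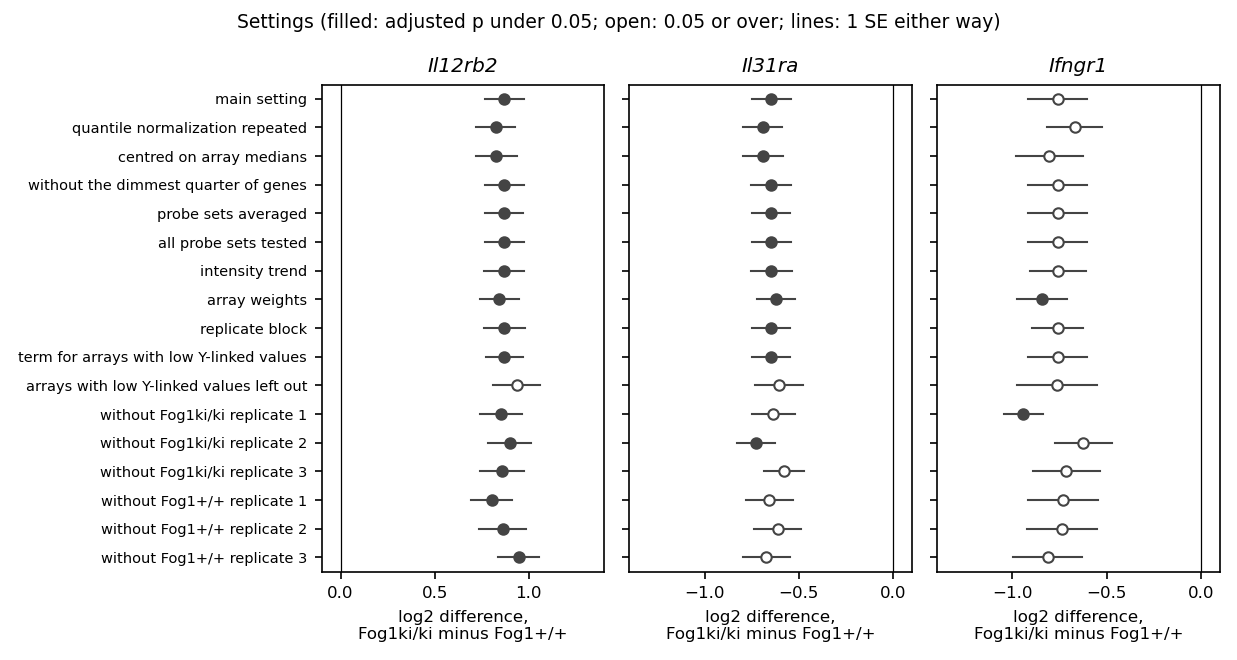
Log2 difference, Fog1ki/ki minus Fog1+/+ (horizontal axis, points with lines of 1 SE either way), of Il12rb2, Il31ra and Ifngr1 as reported (top) and in 16 alternatives (rows). Filled points passed an adjusted p of 0.05: Il12rb2 in all but 1 alternative, Il31ra in 10 of 16 and Ifngr1 in 2 of 16.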

How the data were processed

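The authors deposited RMA log2 values for 25668 probe sets. The submitters' processing notes name RMA (background correction, quantile normalization, probe set summary), with its software version not given in the sources used here. That the scale is log2 follows from the range of the deposited values. RNA was extracted with Trizol and amplified with the WT-Ovation Pico kit, per the labels' protocols. Genes were assigned from the platform annotation, some of which may be outdated: 20777 probe sets had 1 gene, 232 several and 4659 none. For a gene with several probe sets, only that of highest mean value across the 6 arrays was used. All 19661 genes were tested two-sided with limma 3.58.1 (lmFit, then eBayes, with genotype as the only term) under R 4.3.3, with a Benjamini-Hochberg threshold of 0.05 and no filter on dim genes. With 3 arrays a group, exact permutation cannot reach that threshold. Precision is limited by the number of arrays. Since the labels do not say that arrays came from separate mice, p-values measure only the spread between these samples.

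The members, the pathway and marker lists and the settings were chosen with earlier results of these data known. The rule for named genes took receptors past the threshold, the 5 highest and 5 lowest log2 differences, 29 receptor genes known from these cells and their neighbours, and, per pathway list, genes past the threshold and the 1 with the smallest p. All other members are described as well. Jak2, Stat4, Stat5a, Stat5b, Il12a and Il12b were named for their tie to a described receptor. Irf1, Irf7, Irf9, Gbp3, Ifit1, Ifit2, Ifit3, Bst2 and Mx2 were named after their values were seen. The same holds for Cd63, Car1, Ccr3, Siglecf, Fcer1a, Mcpt8 and Prg2. The script was tested on simulated data. Tables used Python 3.11.15 and pandas 2.3.3, and figures matplotlib 3.10.9.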

Additional observations from a re-analysis of the deposited data

How the results depend on the processing

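In all, 16 alternatives were run. The count of genes past the threshold, 152, was 60 to 134 with each array left out in turn (60, 83 and 60 without Fog1+/+ replicate 1, 2 and 3, and 82 without Fog1ki/ki replicate 2). It was 24 without both arrays low in Y-linked genes, where 0 receptors passed limma's threshold as higher and 0 as lower (2 and 4 at unadjusted p under 0.05). The count of lower receptors was 2 with array weights, which added Ifngr1. It was 0 to 1 with each array left out (5 at unadjusted p under 0.05 in each case), and the 1 without Fog1ki/ki replicate 1 was Ifngr1 in place of Il31ra. The count of higher receptors stayed at 1 in the other 15 alternatives. The cause of these changes was not tested, beyond the smaller number of arrays where some were left out.

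Of 41 named genes, 29 kept the sign of their log2 difference in every alternative that tested them, and the other 12 all lay within 0.0633 of 0. Changed signs were measured with quantile normalization repeated for Csf2rb2 (-0.0161), Csf1r (-0.00278), Il4ra (-0.00167), Ifngr2 (-0.00361) and Lepr (-0.0222). With arrays centred on their medians they were measured for Csf2rb2 (-0.00667), Il3ra (-0.0167), Il4ra (-0.0133), Ifngr2 (-0.0233), Crlf2 (-0.0167) and Lepr (-0.0233), and with array weights for Csf2rb2 (-0.00243) and Flt3 (0.0512). Without both arrays low in Y-linked genes they were measured for Csf1r (-0.02), Il18r1 (0.06) and Ifngr2 (-0.075). With each array left out in turn, log2 differences ranged from -0.108 to 0.197 for Csf2rb2, -0.113 to 0.0567 for Flt3, -0.0517 to 0.188 for Csf1r, -0.0133 to 0.132 for Il1rap, -0.115 to 0.05 for Il18r1, -0.0267 to 0.103 for Il4ra, -0.0333 to 0.117 for Ifngr2, -0.0633 to 0.15 for Crlf2, -0.0717 to 0.148 for Ghr, -0.0317 to 0.0517 for Lepr and -0.0583 to 0.157 for Zfpm1. Gata2 lost its call in 5 alternatives.

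Arrays share replicate numbers across genotypes. Deviations of same-numbered arrays correlated across genes at 0.0683, -0.00755 and 0.128 for replicates 1, 2 and 3. Differently numbered arrays gave -0.131 to 0.0584, so replicates 1 and 3 lay above these. Replicate 3 of each genotype also shared low Y-linked values. These values do not settle whether the numbers pair the arrays. The labels name no pairing, and the main setting used none. With the replicate number as a block, 133 genes passed, with Il12rb2 (limma adjusted p = 0.0174) and Il31ra (0.0448) still among them.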
